A study of Mus musculus with 9 samples.

Results

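Collagen chain genes were defined as all genes of the array annotation whose symbol consists of Col, a number, the letter a and a second number, read from transcript clusters (the probe sets that stand for 1 gene) that carry a single gene symbol. There were 42 such genes among 30120 genes with a single-symbol cluster, and each had 1 cluster of the 65672 on the array. They comprised 11 fibrillar chains, 9 FACIT chains (fibril-associated collagens with interrupted triple helices), 6 basement membrane chains, 5 beaded filament chains and 11 other chains. Col7a1 and Col6a4 shared their cluster with the symbol of another gene and were not counted.

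Gene expression was measured in quadriceps of 9 dystrophic mice aged 8 weeks, with 1 array per mouse and 3 mice per genotype. All mice were MR flox/flox;mdx on a C57BL6/C57BL10 background: each lacked dystrophin and carried loxP-flanked alleles of Nr3c2, which encodes the mineralocorticoid receptor (MR). LysM-MRcko/mdx mice (2 males, 1 female) were LysM-Cre+/-, with Cre expressed from the lysozyme gene of myeloid cells throughout the body. MCK-MRcko/mdx mice (1 male, 2 females) were MCK-Cre+/-, with Cre driven by the muscle creatine kinase promoter of myofibers. Cre-/mdx controls (2 males, 1 female) were Cre -/- littermates. The comparisons asked how the loss of MR in each cell type, and the cell type itself, related to gene expression in dystrophic muscle. Because RNA came from whole muscle, fewer cells of a type and less RNA per cell cannot be told apart.

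Collagens are triple helices of alpha chains. Fibrillar collagens form the cable-like fibrils that stiffen muscle during fibrosis, FACIT collagens decorate the surface of those fibrils, basement membrane collagens form the sheet around each myofiber and capillary, and collagen VI forms beaded filaments that link the sheet to the surrounding matrix. In skeletal muscle most interstitial collagen is made by fibroblasts and fibro-adipogenic progenitors, and its build-up between fibers is a hallmark of dystrophin deficiency.

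Values were log2 signals, on which a difference of 1 is a 2-fold difference. A gene was called changed when 2 genotypes differed by at least 2-fold with an unadjusted p under 0.05 in limma, and p-values adjusted over all clusters (Benjamini-Hochberg) are given beside it. Over all clusters this rule called 0.376% in LysM-MRcko/mdx against Cre-/mdx, 0.321% in MCK-MRcko/mdx against Cre-/mdx and 0.429% in LysM-MRcko/mdx against MCK-MRcko/mdx. No cluster had an adjusted p under 0.05 in any of the 3 comparisons. Array medians were between 4.70 and 4.78. The 12 markers of muscle fibers had a median of 19.91 to 19.93 on each array, at the top of the scale (19.93), whereas collagen signals lay between 3.91 and 16.39. Signal of Nr3c2 was 6.89, 6.89 and 6.96 in LysM-MRcko/mdx, 6.74, 6.81 and 6.87 in MCK-MRcko/mdx and 6.89, 7.12 and 7.06 in Cre-/mdx. The difference from Cre-/mdx was -0.11 in LysM-MRcko/mdx, with overlap, and -0.22 in MCK-MRcko/mdx, with all mice below the controls (p = 0.0140, adjusted p = 0.840 in limma, exact permutation p = 0.10).

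None of the 42 collagen genes was called changed in any of the 3 comparisons. Adjusted p-values in limma were no lower than 0.785 in LysM-MRcko/mdx against Cre-/mdx, 0.840 in MCK-MRcko/mdx against Cre-/mdx and 0.644 in LysM-MRcko/mdx against MCK-MRcko/mdx. In LysM-MRcko/mdx against Cre-/mdx, 5 collagen genes (11.9%) had an unadjusted p under 0.05, against 6.2% of all clusters. These were Col5a1, Col5a2, Col16a1 and Col8a1 with higher signal and Col6a6 with lower signal. In MCK-MRcko/mdx against Cre-/mdx it was 1 gene (2.38%), Col4a2 with lower signal, against 5.54% of all clusters. In LysM-MRcko/mdx against MCK-MRcko/mdx it was 2 genes (4.76%), Col5a1 and Col8a1 with higher signal, against 7.12%. A plain equal-variance test per cluster gave 0, 0 and 4 collagen genes at the same unadjusted limit.

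Signal in all 3 LysM-MRcko/mdx mice was above all 3 Cre-/mdx mice for 5 collagen genes (11.9%), Col5a1, Col5a2, Col12a1, Col16a1 and Col8a1, and below them for 0, where 7.74% of all clusters did not overlap in either direction. For MCK-MRcko/mdx against Cre-/mdx the groups overlapped for every collagen gene, against 6.2% of clusters without overlap. The LysM-MRcko/mdx mice were all above the MCK-MRcko/mdx mice for 6 collagen genes (14.3%), Col1a1, Col5a1, Col12a1, Col16a1, Col6a2 and Col8a1, against 8.78% of all clusters. The lowest p that exact permutation of 3 and 3 mice allows is 0.10 (two-sided), and every gene without overlap had it. The 3 comparisons share groups, so their counts are not independent of each other.

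By direction, the difference was above 0 for 23 collagen genes, 0 for 7 and below 0 for 12 in LysM-MRcko/mdx against Cre-/mdx, with a median of 0.02. In MCK-MRcko/mdx against Cre-/mdx it was above 0 for 18, 0 for 7 and below 0 for 17, with a median of 0. Between the knockouts it was above 0 in LysM-MRcko/mdx for 30, 0 for 9 and below 0 for 3 (Col3a1, Col6a5 and Col6a6), with a median of 0.03. The median over all single-symbol clusters was 0 in each comparison. Scaling moved these counts. With array medians made equal the split was 30 above and 12 below 0 in LysM-MRcko/mdx against Cre-/mdx. It was 27 above and 12 below in MCK-MRcko/mdx against Cre-/mdx and 28 above and 14 below between the knockouts. With quantile normalisation the splits, in the same order, were 26 above and 16 below, 23 above and 19 below, and 31 above and 11 below. Of the 42 genes 18 (42.9%) are called flat here because they held 1 deposited value in at least 6 of the 9 arrays, as did 23.2% of the single-symbol clusters. The heat map of all members by mouse shows 1 column that is blue in most of the rows that vary, Cre-/mdx replicate 2, which is described after the classes.

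**Figure D1:**
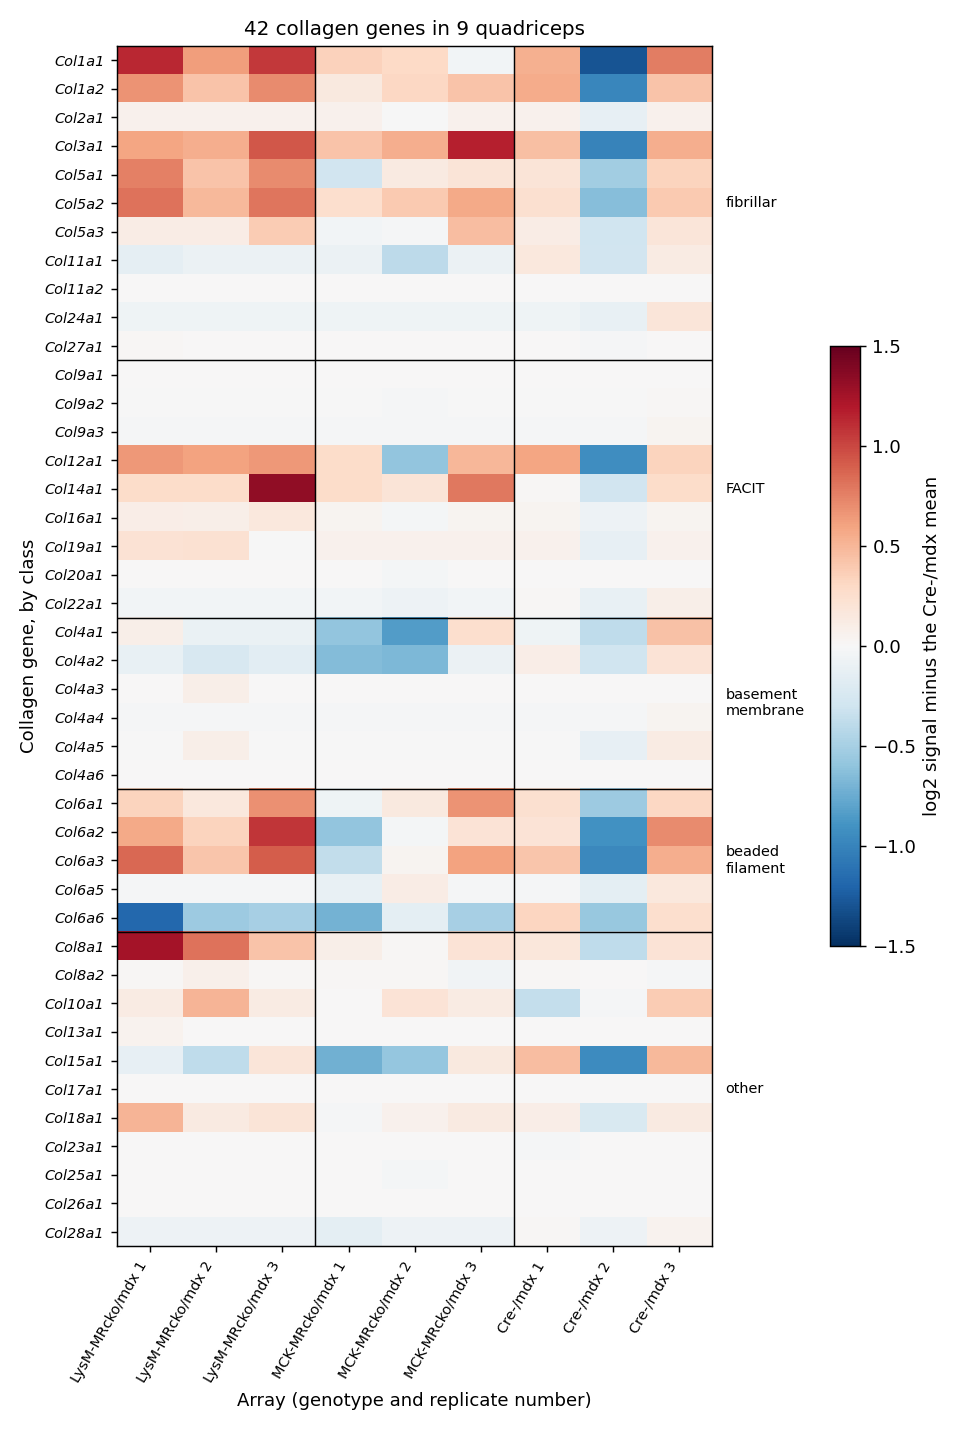
Log2 signal of each of the 42 collagen genes (rows, grouped by class) in each of the 9 mice (columns) minus the mean of the 3 Cre-/mdx mice; red is above and blue below that mean. Col1a1 and Col3a1 were darkest blue in Cre-/mdx replicate 2, and 18 rows barely vary in any column.

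Type I collagen is the main fibril former of scar. Col1a1, which encodes its alpha 1 chain, had 16.33, 15.82 and 16.26 in LysM-MRcko/mdx, 15.54, 15.50 and 15.15 in MCK-MRcko/mdx and 15.73, 13.90 and 15.96 in Cre-/mdx. LysM-MRcko/mdx mice were above all MCK-MRcko/mdx mice but overlapped the controls, in which replicate 2 lay far below the other two. The difference from Cre-/mdx was 0.94 in LysM-MRcko/mdx (SE 0.52, adjusted p = 0.798 in limma) and 0.20 in MCK-MRcko/mdx (SE 0.52, adjusted p = 0.971). Without Cre-/mdx replicate 2 these were 0.29 and -0.45, and without Cre-/mdx replicate 3 Col1a1 met the rule in LysM-MRcko/mdx at 1.32 (adjusted p = 0.635 in limma). LysM-MRcko/mdx exceeded MCK-MRcko/mdx by 0.74 (SE 0.52, p = 0.195, exact permutation p = 0.10).

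Col1a2, the alpha 2 chain of the same molecule, had 15.05, 14.80 and 15.08 in LysM-MRcko/mdx, 14.52, 14.68 and 14.80 in MCK-MRcko/mdx and 14.93, 13.39 and 14.80 in Cre-/mdx. The groups overlapped, and Cre-/mdx replicate 2 stood more than 1 unit below every other mouse. Differences from Cre-/mdx were 0.60 (SE 0.38) in LysM-MRcko/mdx and 0.29 (SE 0.38) in MCK-MRcko/mdx, and 0.11 and -0.20 without that control. The Col1a2 promoter window is shown because this chain is the partner of Col1a1, whose window was not in the table. Windows run from 250 bases before to 50 bases after the RefSeq start on GRCm38.p6, read 5′ to 3′ along the gene, and 33 of the 42 collagen genes had one. Col1a2 lies at chr6:4505368-4505667, plus strand. Capitals mark CCAAT and GGGCGG on either strand (the CCAAT and GC boxes), which occur in 37.4% and 35.7% of all 32851 windows and in 11 and 20 of the 33 collagen windows. The marked matches do not overlap.
Col1a2: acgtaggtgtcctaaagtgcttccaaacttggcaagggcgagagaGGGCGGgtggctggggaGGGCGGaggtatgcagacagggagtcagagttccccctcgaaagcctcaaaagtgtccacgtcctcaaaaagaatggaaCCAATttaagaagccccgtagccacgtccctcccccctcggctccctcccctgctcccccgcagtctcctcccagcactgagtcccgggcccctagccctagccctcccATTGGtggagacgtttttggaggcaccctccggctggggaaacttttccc

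Col3a1 encodes type III collagen, a homotrimer that co-assembles with type I in young and compliant fibrils. Its signal was 15.82, 15.77 and 16.16 in LysM-MRcko/mdx, 15.65, 15.77 and 16.39 in MCK-MRcko/mdx and 15.68, 14.22 and 15.77 in Cre-/mdx. All groups overlapped, and MCK-MRcko/mdx replicate 3 had the highest value. The difference from Cre-/mdx was 0.69 in LysM-MRcko/mdx (SE 0.43, exact permutation p = 0.20) and 0.71 in MCK-MRcko/mdx (SE 0.43, exact permutation p = 0.50), and 0.19 and 0.21 without Cre-/mdx replicate 2. The knockouts differed by -0.02 (95% interval -1.03 to 0.99).

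Type V collagen sits inside type I fibrils and limits their diameter. Col5a1 had 7.77, 7.44 and 7.73 in LysM-MRcko/mdx, 6.73, 7.15 and 7.21 in MCK-MRcko/mdx and 7.21, 6.49 and 7.35 in Cre-/mdx. All 3 LysM-MRcko/mdx mice were above both other genotypes, with a difference of 0.63 from Cre-/mdx (SE 0.25, p = 0.0373, adjusted p = 0.785 in limma, exact permutation p = 0.10) and of 0.62 from MCK-MRcko/mdx (SE 0.25, p = 0.0404, adjusted p = 0.692). MCK-MRcko/mdx differed from Cre-/mdx by 0.01 (SE 0.25). Without Cre-/mdx replicate 2 the Col5a1 difference from Cre-/mdx was 0.37 in LysM-MRcko/mdx and -0.25 in MCK-MRcko/mdx.

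Col5a2, the second type V chain, had 10.28, 9.95 and 10.27 in LysM-MRcko/mdx, 9.72, 9.86 and 10.04 in MCK-MRcko/mdx and 9.71, 8.83 and 9.86 in Cre-/mdx. LysM-MRcko/mdx was above Cre-/mdx without overlap (0.70, SE 0.27, p = 0.0342, adjusted p = 0.785 in limma, exact permutation p = 0.10), and MCK-MRcko/mdx lay between and overlapped both (0.41 from Cre-/mdx, SE 0.27). Without Cre-/mdx replicate 2 the differences from Cre-/mdx were 0.38 and 0.09. Col5a3, a type V chain of restricted expression, differed by 0.21 in LysM-MRcko/mdx and 0.13 in MCK-MRcko/mdx (SE 0.18 each, overlapping groups), and by 0.06 and -0.01 without Cre-/mdx replicate 2. Its highest value, 7.36, was in MCK-MRcko/mdx replicate 3.

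Col11a1, which nucleates fibrils in cartilage, had 6.10, 6.14 and 6.14 in LysM-MRcko/mdx, 6.14, 5.84 and 6.14 in MCK-MRcko/mdx and 6.39, 5.95 and 6.36 in Cre-/mdx. Of the fibrillar chains that were not flat it alone had differences below 0 in both knockouts (-0.11 and -0.19, SE 0.13 each), and without Cre-/mdx replicate 2 these were -0.25 and -0.34, each with an unadjusted p under 0.05. Col2a1, Col11a2, Col24a1 and Col27a1, the remaining fibrillar chains, held the same deposited value in 7 to 9 of the 9 arrays. Over the 11 fibrillar chains 8 differences were above 0 in each knockout, and the median was 0.21 in LysM-MRcko/mdx, 0.04 in MCK-MRcko/mdx and 0.07 between the knockouts, with 0 chains called. Leaving out Cre-/mdx replicate 2 gave fibrillar medians of 0.06 in LysM-MRcko/mdx and -0.02 in MCK-MRcko/mdx.

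**Figure D2:**
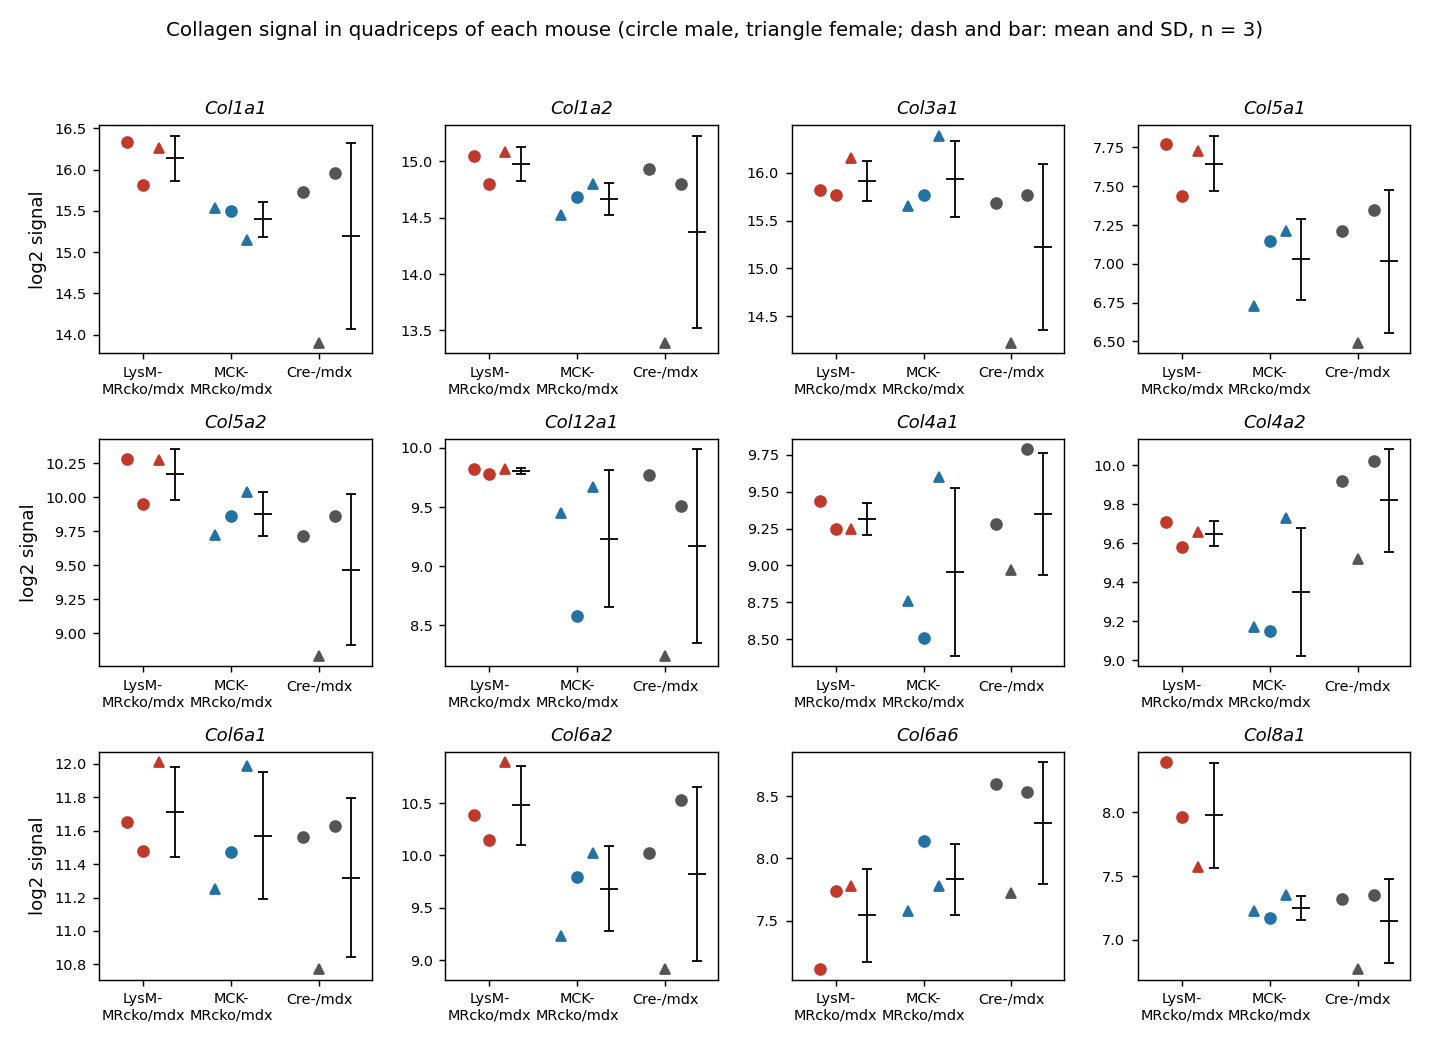
Log2 signal of 12 collagen genes in each mouse, with a separate vertical axis per gene that does not start at 0, circles for males and triangles for females. Black dashes and bars give the mean and SD of 3 mice; Cre-/mdx replicate 2 is the lone grey triangle, and Col8a1 and Col5a1 show LysM-MRcko/mdx above both other genotypes.

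FACIT chains bind the surface of type I fibrils. Col12a1, which connects fibrils under tension, had 9.82, 9.78 and 9.82 in LysM-MRcko/mdx, 9.45, 8.58 and 9.67 in MCK-MRcko/mdx and 9.77, 8.24 and 9.51 in Cre-/mdx. The LysM-MRcko/mdx mice were nearly identical (SD 0.02) and above every mouse of the other genotypes, though barely above Cre-/mdx replicate 1. The mean difference was 0.63 from Cre-/mdx (SE 0.44, exact permutation p = 0.10) and 0.57 from MCK-MRcko/mdx (SE 0.44, exact permutation p = 0.10), and was 0.17 from Cre-/mdx without Cre-/mdx replicate 2 and 0.25 from MCK-MRcko/mdx without MCK-MRcko/mdx replicate 2.

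Col14a1, a FACIT chain of mature interstitial matrix, had 10.93, 10.93 and 11.99 in LysM-MRcko/mdx, 10.93, 10.85 and 11.45 in MCK-MRcko/mdx and 10.67, 10.37 and 10.93 in Cre-/mdx. Both knockouts overlapped the controls (0.63 in LysM-MRcko/mdx and 0.42 in MCK-MRcko/mdx, SE 0.33 each, exact permutation p = 0.30 for both), and replicate 3, a female, was the highest mouse of each knockout. Without that mouse the Col14a1 difference from Cre-/mdx was 0.27 in LysM-MRcko/mdx and 0.23 in MCK-MRcko/mdx. Col16a1, which bridges fibrils and other matrix, had 5.89, 5.88 and 5.95 in LysM-MRcko/mdx, 5.83, 5.76 and 5.83 in MCK-MRcko/mdx and 5.83, 5.71 and 5.83 in Cre-/mdx. Its LysM-MRcko/mdx mice were above both other genotypes, but by only 0.12 from Cre-/mdx (p = 0.0388, adjusted p = 0.785 in limma, exact permutation p = 0.10) and 0.10 from MCK-MRcko/mdx (SE 0.05 each), within a range of 0.24 over all mice.

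Col19a1 (5.33 to 5.68) and Col22a1, a collagen of the muscle-tendon junction (5.03 to 5.23), differed by 0.15 or less in any comparison. Col9a1, Col9a2, Col9a3 and Col20a1 were flat, with Col9a1 at 4.49 in every mouse. The median over the 9 FACIT chains was 0 in both knockouts against Cre-/mdx and 0.01 between the knockouts, with 0 chains called.

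Type IV collagen forms the network of basement membranes, and Col4a1 and Col4a2 encode its 2 ubiquitous chains. Col4a1 had 9.44, 9.25 and 9.25 in LysM-MRcko/mdx, 8.76, 8.51 and 9.60 in MCK-MRcko/mdx and 9.28, 8.97 and 9.79 in Cre-/mdx. Col4a2 had 9.71, 9.58 and 9.66 in LysM-MRcko/mdx, 9.17, 9.15 and 9.73 in MCK-MRcko/mdx and 9.92, 9.52 and 10.02 in Cre-/mdx. For both genes MCK-MRcko/mdx replicates 1 and 2 were the lowest of the 9 mice, while replicate 3 lay among the controls, so the groups overlapped.

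The MCK-MRcko/mdx difference from Cre-/mdx was -0.39 for Col4a1 (SE 0.31, p = 0.252) and -0.47 for Col4a2 (SE 0.19, p = 0.0411, adjusted p = 0.840 in limma, exact permutation p = 0.20). In LysM-MRcko/mdx the differences from Cre-/mdx were -0.03 and -0.17. For these genes Cre-/mdx replicate 2 was not the lowest mouse, and without it the MCK-MRcko/mdx differences were -0.58 and -0.62. Without MCK-MRcko/mdx replicate 3 they were -0.71 and -0.66, and that of Col4a1 was -0.17 without MCK-MRcko/mdx replicate 2 or Cre-/mdx replicate 3. Endothelial cells also make this collagen. All 11 measured endothelial markers were below 0 in MCK-MRcko/mdx minus Cre-/mdx, with a median of -0.71. Of the 11, 1 was called (Cdh5), where the rule called 0.321% of all clusters. In LysM-MRcko/mdx minus Cre-/mdx 10 of the 11 were below 0 too, with a median of -0.35 and 0 called. With each marker set to its own Cre-/mdx mean, the endothelial median was -0.29, -0.46 and -0.29 in LysM-MRcko/mdx, -0.76, -1.08 and -0.24 in MCK-MRcko/mdx and -0.14, 0.02 and 0.16 in Cre-/mdx. All 10 mural cell markers were below 0 in MCK-MRcko/mdx (median -0.37, Rgs5 called) and 5 of 10 in LysM-MRcko/mdx. The calls of Cdh5 and Rgs5 depended on single mice: without MCK-MRcko/mdx replicate 2 their differences were -0.81 and -0.62, under 2-fold. Their part in the type IV values was not tested.

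Col4a1 and Col4a2 are neighbours on opposite strands, and their promoter windows are shown because the 2 chains varied together across mice. By the window coordinates, each start lies within the first bases of the other transcript, so the transcripts overlap there. RefSeq places their starts 21 bases apart on opposite strands of GRCm38.p6, with Col4a1 at chr8:11312777-11313076 (minus strand) and Col4a2 at chr8:11312555-11312854 (plus strand). Capitals mark the 78 bases that both windows share, of which 73.1% are G or C, so the capitals of each line are the reverse complement of those of the other.
Col4a1: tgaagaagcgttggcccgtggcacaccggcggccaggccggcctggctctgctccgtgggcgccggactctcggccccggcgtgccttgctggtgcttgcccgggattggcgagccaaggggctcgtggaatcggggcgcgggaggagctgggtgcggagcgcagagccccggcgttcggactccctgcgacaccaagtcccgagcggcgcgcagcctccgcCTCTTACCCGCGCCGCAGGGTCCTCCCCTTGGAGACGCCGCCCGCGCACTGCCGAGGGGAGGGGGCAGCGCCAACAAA
Col4a2: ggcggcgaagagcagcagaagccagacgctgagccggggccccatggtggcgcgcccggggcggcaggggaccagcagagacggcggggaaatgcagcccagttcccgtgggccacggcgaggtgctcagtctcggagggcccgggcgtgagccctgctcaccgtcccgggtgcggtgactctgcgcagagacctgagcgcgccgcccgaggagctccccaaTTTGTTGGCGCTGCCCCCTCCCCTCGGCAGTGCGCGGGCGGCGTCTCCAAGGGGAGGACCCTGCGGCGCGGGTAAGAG

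Of the tissue-restricted type IV chains, Col4a5 had 5.52, 5.61 and 5.52 in LysM-MRcko/mdx, 5.52 in all MCK-MRcko/mdx mice and 5.52, 5.40 and 5.65 in Cre-/mdx. Col4a3, Col4a4 and Col4a6 varied less, and all 4 were flat. Over the 6 basement membrane chains the median difference was -0.01 in LysM-MRcko/mdx, -0.01 in MCK-MRcko/mdx and 0.03 between the knockouts. No difference was above 0 in MCK-MRcko/mdx against Cre-/mdx, where 4 were below 0 and 2 were 0.

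Type VI collagen, whose loss causes congenital muscular dystrophies in people, assembles from 3 chains. Col6a1 had 11.65, 11.48 and 12.01 in LysM-MRcko/mdx, 11.25, 11.47 and 11.99 in MCK-MRcko/mdx and 11.56, 10.77 and 11.63 in Cre-/mdx. Its groups overlapped in each comparison, with differences of 0.39 and 0.25 from Cre-/mdx (SE 0.29 each). Col6a2 had 10.39, 10.15 and 10.89 in LysM-MRcko/mdx, 9.23, 9.79 and 10.02 in MCK-MRcko/mdx and 10.02, 8.91 and 10.53 in Cre-/mdx. All LysM-MRcko/mdx mice were above all MCK-MRcko/mdx mice for Col6a2 (0.80, SE 0.44, p = 0.110, adjusted p = 0.755 in limma, exact permutation p = 0.10), the largest difference of any collagen gene between the knockouts, and both overlapped the controls (0.66 and -0.14).

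Col6a3, the largest chain, had 12.65, 12.20 and 12.69 in LysM-MRcko/mdx, 11.42, 11.82 and 12.39 in MCK-MRcko/mdx and 12.20, 10.82 and 12.33 in Cre-/mdx. LysM-MRcko/mdx overlapped both other genotypes (0.73 from Cre-/mdx, exact permutation p = 0.30, and 0.64 from MCK-MRcko/mdx, exact permutation p = 0.20, SE 0.44 each). Without Cre-/mdx replicate 2 the difference of Col6a1, Col6a2 and Col6a3 from Cre-/mdx was 0.12, 0.20 and 0.25 in LysM-MRcko/mdx and -0.03, -0.60 and -0.39 in MCK-MRcko/mdx.

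Col6a6, a chain that can take the place of Col6a3, ran the other way. It had 7.11, 7.74 and 7.78 in LysM-MRcko/mdx, 7.58, 8.14 and 7.78 in MCK-MRcko/mdx and 8.60, 7.72 and 8.53 in Cre-/mdx. Cre-/mdx replicates 1 and 3 were above every knockout mouse, and replicate 2 was within both knockouts. The difference was -0.74 in LysM-MRcko/mdx (SE 0.30, p = 0.0416, adjusted p = 0.785 in limma, exact permutation p = 0.30) and -0.45 in MCK-MRcko/mdx (p = 0.174). Without Cre-/mdx replicate 2 Col6a6 met the rule in LysM-MRcko/mdx at -1.02 (adjusted p = 0.648 in limma), and it was -0.73 in MCK-MRcko/mdx. Col6a5, another such chain, differed by 0.02 or less. The beaded filament median was 0.39 in LysM-MRcko/mdx, -0.0033 in MCK-MRcko/mdx and 0.14 between the knockouts, with 0 of 5 chains called. Leaving out Cre-/mdx replicate 2 gave 0.12 in LysM-MRcko/mdx and -0.39 in MCK-MRcko/mdx, and leaving out MCK-MRcko/mdx replicate 1 gave -0.02 between the knockouts.

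Col8a1, a short-chain collagen made by vascular and activated mesenchymal cells, had the smallest p of all collagen genes in 2 of the comparisons. Signal was 8.39, 7.96 and 7.57 in LysM-MRcko/mdx, 7.23, 7.17 and 7.35 in MCK-MRcko/mdx and 7.32, 6.77 and 7.35 in Cre-/mdx. LysM-MRcko/mdx mice were above every other mouse, the female replicate 3 by the least. The difference was 0.83 from Cre-/mdx, a fold of 1.77 (SE 0.23, p = 0.00947, adjusted p = 0.785 in limma, exact permutation p = 0.10). It was 0.72 from MCK-MRcko/mdx, a fold of 1.65 (SE 0.23, p = 0.0174, adjusted p = 0.644 in limma, exact permutation p = 0.10). Col8a1 met the rule without LysM-MRcko/mdx replicate 3 at 1.03 (adjusted p = 0.758 in limma), and without Cre-/mdx replicate 2 its difference from Cre-/mdx was 0.64. MCK-MRcko/mdx differed from Cre-/mdx by 0.10 (95% interval -0.45 to 0.66), below 2-fold in either direction.

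The Col8a1 promoter window, at chr16:57754688-57754987 of GRCm38.p6 on the minus strand, is printed because this gene showed the clearest separation of genotypes. Capitals mark GGGCGG on either strand, found 4 times, and CCAAT was not found in the window.
Col8a1: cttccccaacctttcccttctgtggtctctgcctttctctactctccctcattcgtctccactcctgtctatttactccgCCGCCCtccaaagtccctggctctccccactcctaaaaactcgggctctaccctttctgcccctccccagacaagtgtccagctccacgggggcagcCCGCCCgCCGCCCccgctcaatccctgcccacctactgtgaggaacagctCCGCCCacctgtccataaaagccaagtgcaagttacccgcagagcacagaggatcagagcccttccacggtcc

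Col8a2, the partner chain of Col8a1, ranged from 4.76 to 4.89 and differed by 0.04 or less. Col15a1, a basement membrane zone collagen of muscle and capillaries, had 9.77, 9.52 and 10.08 in LysM-MRcko/mdx, 9.18, 9.32 and 10.04 in MCK-MRcko/mdx and 10.36, 8.95 and 10.38 in Cre-/mdx. Controls 1 and 3 were above every knockout mouse and control 2 below every one. Its differences were -0.11 in LysM-MRcko/mdx and -0.38 in MCK-MRcko/mdx (SE 0.43 each), and -0.58 and -0.86 without Cre-/mdx replicate 2.

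Col18a1, the precursor of endostatin, had 6.66, 6.28 and 6.34 in LysM-MRcko/mdx, 6.13, 6.22 and 6.28 in MCK-MRcko/mdx and 6.25, 5.92 and 6.28 in Cre-/mdx. LysM-MRcko/mdx shared its lowest value with the highest of the other genotypes (0.28 from Cre-/mdx, SE 0.13, exact permutation p = 0.20). Col10a1, a marker of hypertrophic cartilage, ranged from 4.22 to 5.09 with overlapping groups. Col13a1, a transmembrane collagen of the neuromuscular junction, was 5.22 in 8 mice and 5.27 in LysM-MRcko/mdx replicate 1. Col25a1, a transmembrane collagen needed for muscle innervation, was 4.38 in 8 mice. Col28a1, found around Schwann cells, ranged from 5.32 to 5.52. Over the 11 chains of this class the median difference was 0.01 in LysM-MRcko/mdx, 0 in MCK-MRcko/mdx and 0.02 between the knockouts, with 0 chains called.

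**Figure D3:**
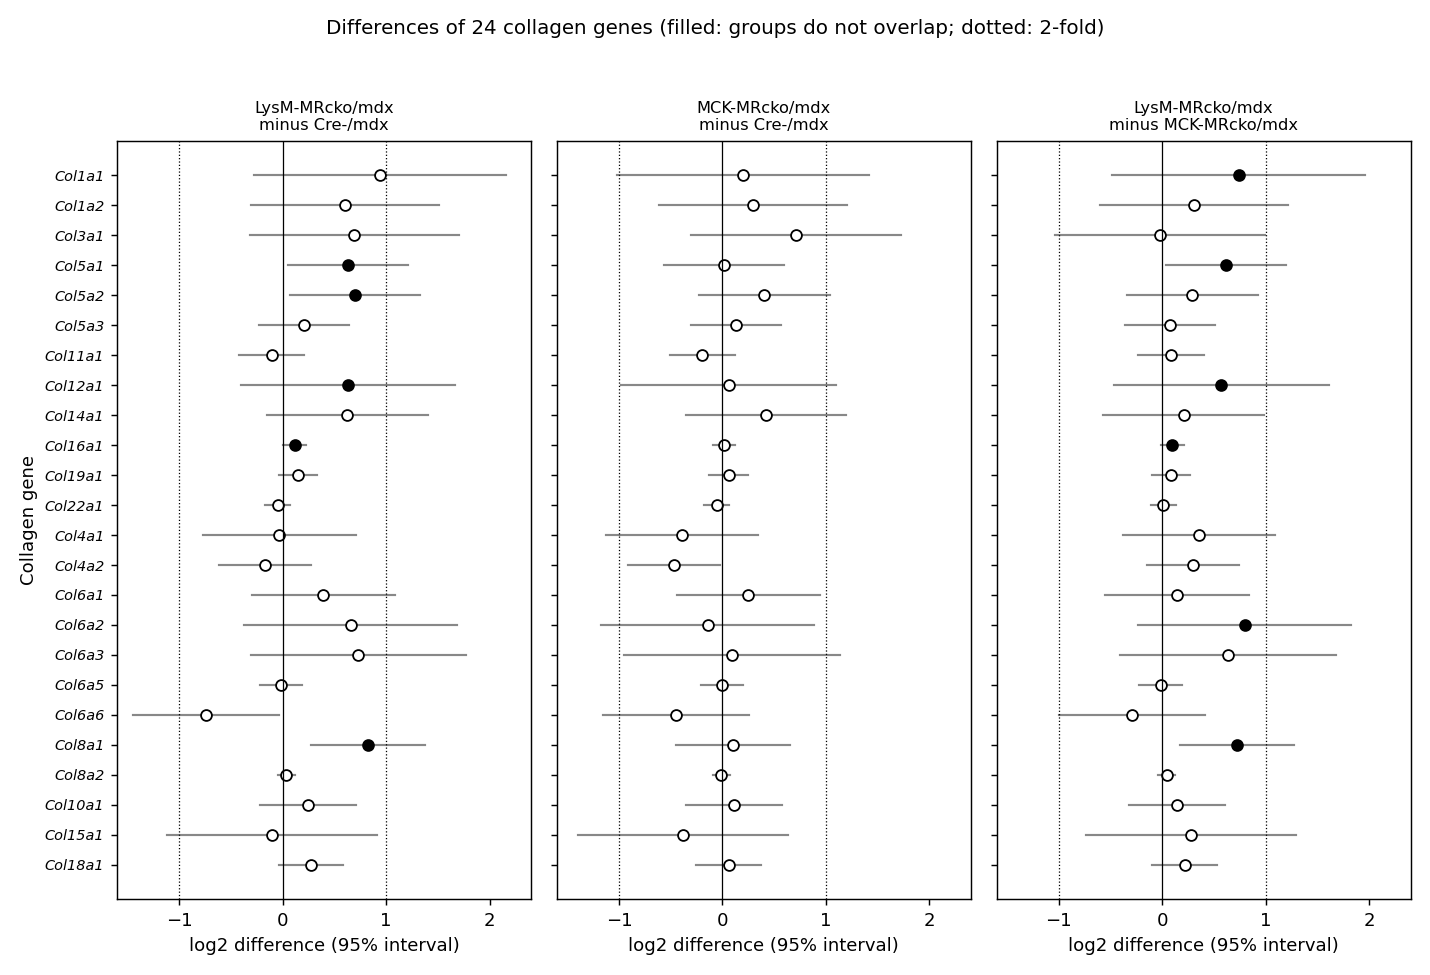
Log2 difference (dot) and its 95% interval in limma (line) for the 24 collagen genes without a repeated value in 6 or more arrays, in the 3 comparisons, with dotted lines at 2-fold. Filled dots mark genes whose 3 mice per genotype do not overlap. Most intervals include 0, and those of Col8a1 and Col5a1 lie above 0 in both comparisons of LysM-MRcko/mdx.

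Among the 18 flat chains, 5 (Col11a2, Col9a1, Col4a6, Col17a1 and Col26a1) had the same value in every mouse. Values of a flat chain, Col23a1 among them, spanned at most 0.30 over the 9 mice, and no difference among them exceeded 0.10 in either direction. They include chains known from cartilage (Col2a1, the Col9 chains), kidney (Col4a3 and Col4a4) and epithelium (Col17a1). Flat chains bring the medians over all members toward 0: over the 24 others, a description with no test since this limit was set after the values were seen, the median was 0.26 in LysM-MRcko/mdx against Cre-/mdx (17 above 0, 7 below), 0.06 in MCK-MRcko/mdx against Cre-/mdx (15 above, 9 below) and 0.21 between the knockouts (21 above, 3 below).

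One control stood apart for the collagen genes. Cre-/mdx replicate 2, the only female control, was the lowest of the 9 mice for 18 of the 24 collagen genes that were not flat (75.0%), and the lowest for 9.99% of the 23377 comparable single-symbol clusters. The exceptions were Col11a1, Col4a1, Col4a2, Col6a6, Col8a2 and Col10a1. Without this mouse the median over the 24 genes was 0.12 in LysM-MRcko/mdx (17 above 0, 7 below) and -0.10 in MCK-MRcko/mdx (4 above, 19 below), so most MCK-MRcko/mdx differences were then below 0. With each adipocyte marker set to its own Cre-/mdx mean, the median of the 7 markers was 1.32 in this mouse. It was -0.24 and -0.91 in the other controls, 1.74 in LysM-MRcko/mdx replicate 3 and between -0.87 and 0.51 in the other knockout mice. LysM-MRcko/mdx replicate 3 was the highest of the 9 mice for 6 of the 24 collagen genes and the lowest for 0. Other lists, set the same way, were low in Cre-/mdx replicate 2: -0.37 for tendon, -0.35 for regenerating fibers, -0.15 for collagen processing and -0.13 for activated fibroblasts. Resting fibroblast, glial and mural cell medians were between -0.05 and -0.03 there. Those of cartilage, endothelium and macrophages were 0.0017, 0.02 and 0.11. The part of adipocytes and of these other cell types in the collagen values was not tested. The mean differences between the knockouts do not use the controls, but their SE and p do, since all 9 arrays set the spread in the fit.

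Without Cre-/mdx replicate 2, 6 collagen genes had an unadjusted p under 0.05 in limma in each comparison. The share of all clusters under that limit was not computed without this mouse, so these counts cannot be set beside it. In LysM-MRcko/mdx against the remaining controls, Col5a2 and Col8a1 were higher and Col11a1, Col22a1, Col6a6 and Col28a1 lower. In MCK-MRcko/mdx all 6 were lower (Col11a1, Col22a1, Col4a2, Col6a6, Col15a1 and Col28a1). Some of these shifts were very small: in LysM-MRcko/mdx and MCK-MRcko/mdx, Col22a1 differed by -0.10 and -0.11 and the flat chain Col28a1 by -0.11 and -0.13. Between the knockouts, Col1a1, Col1a2, Col5a1, Col16a1, Col6a2 and Col8a1 were higher in LysM-MRcko/mdx. Of these differences only that of Col6a6 in LysM-MRcko/mdx reached 2-fold. Over all clusters, calls by the rule also went up without this mouse. They went from 247 to 361 in LysM-MRcko/mdx against Cre-/mdx and from 211 to 355 in MCK-MRcko/mdx against Cre-/mdx. Between the knockouts they went from 282 to 285. Cre-/mdx replicate 2 is singled out here for its low collagen values, so these counts are a description and not a test.

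Values were then taken within each sex. Among males, LysM-MRcko/mdx (n = 2) against Cre-/mdx (n = 2) had a median of 0.06 over the 24 genes, with 14 above 0 and 10 below. Among females, the single LysM-MRcko/mdx mouse was above Cre-/mdx replicate 2, the single control, for all 24 genes (median 0.74). The mean of the 2 MCK-MRcko/mdx females was above that control for 21 (median 0.49). The single MCK-MRcko/mdx male was above the mean of the control males for 6 genes and below it for 17 (median -0.15). Between the knockouts the median was 0.25 among males (22 above 0) and 0.19 among females (21 above 0). Sex and the individual control female cannot be told apart.

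**Figure D4:**
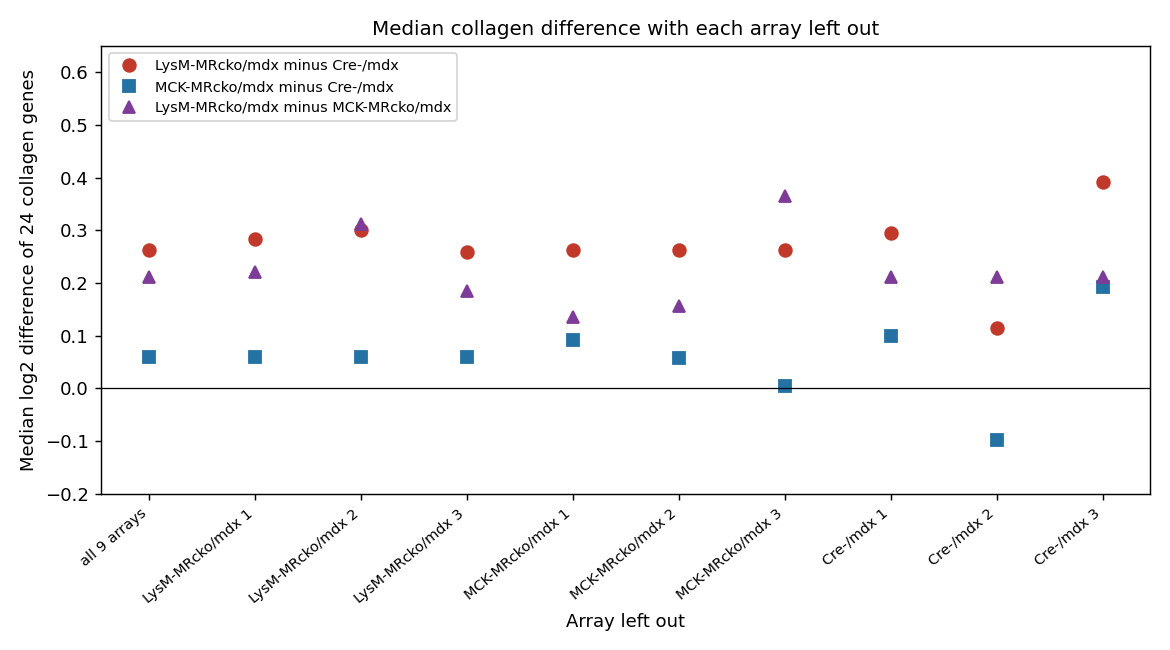
Median log2 difference over the 24 collagen genes that were not flat (vertical axis), with all 9 arrays and with each array left out in turn (horizontal axis), for the 3 comparisons. The MCK-MRcko/mdx minus Cre-/mdx median went below 0, to -0.10, without Cre-/mdx replicate 2, and LysM-MRcko/mdx minus MCK-MRcko/mdx stayed between 0.14 and 0.37.

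Collagen chains, mostly of 1 molecule, were compared across the 9 mice for 8 pairs, of which 7 could be computed because Col9a1 did not vary. The only pair of separate molecules was Col1a1 with Col3a1. Whether chains of 1 molecule varied together more than other collagen chains was therefore not tested. Col1a1 and Col1a2 had a Pearson r of 0.93 (exact permutation p = 0.00268, adjusted over 7 pairs 0.00469) and a Spearman rho of 0.80 (p = 0.0132, adjusted 0.0185, exact permutation). For Col4a1 and Col4a2 they were 0.91 (exact permutation p = 0.00115, adjusted 0.00267) and 0.95 (p = 0.000375, adjusted 0.00131). Col6a1 with Col6a3 gave 0.92 (exact permutation p = 0.000468, adjusted 0.00185) and 0.98 (p = 6.61e-05, adjusted 0.000463). With genotype means removed, r was 0.93, 0.94 and 0.96 for these pairs, which were ordered alike across mice, with Cre-/mdx replicate 2 at the low end for the type I and VI chains.

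The remaining pairs were less uniform. Col5a1 with Col5a2 gave r = 0.89 (exact permutation p = 0.000529, adjusted 0.00185) and rho = 0.84 (p = 0.00622, adjusted 0.0145), and Col6a1 with Col6a2 gave r = 0.85 (exact permutation p = 0.00405, adjusted 0.00566) and rho = 0.83 (p = 0.00829, adjusted 0.0145). Col1a1 with Col3a1, which form separate molecules in shared fibrils, gave r = 0.75 (exact permutation p = 0.0757, adjusted 0.0883) and rho = 0.41 (p = 0.283, adjusted 0.330). Col8a1 with Col8a2 gave r = 0.37 (exact permutation p = 0.312) and rho = 0.30 (p = 0.435). After removing the 2 mice farthest from the median of the first gene, r was 0.61 for Col1a1 and Col1a2, 0.79 for Col5a1 and Col5a2, 0.79 for Col4a1 and Col4a2, 0.56 for Col6a1 and Col6a2, 0.75 for Col6a1 and Col6a3, -0.19 for Col1a1 and Col3a1 and -0.13 for Col8a1 and Col8a2, none with an adjusted exact permutation p under 0.05. Those mice included Cre-/mdx replicate 2 for the type I, V and VI pairs. Removing the extremes of 1 gene narrows its range, which by itself lowers r, and leaves 7 mice.

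**Figure D5:**
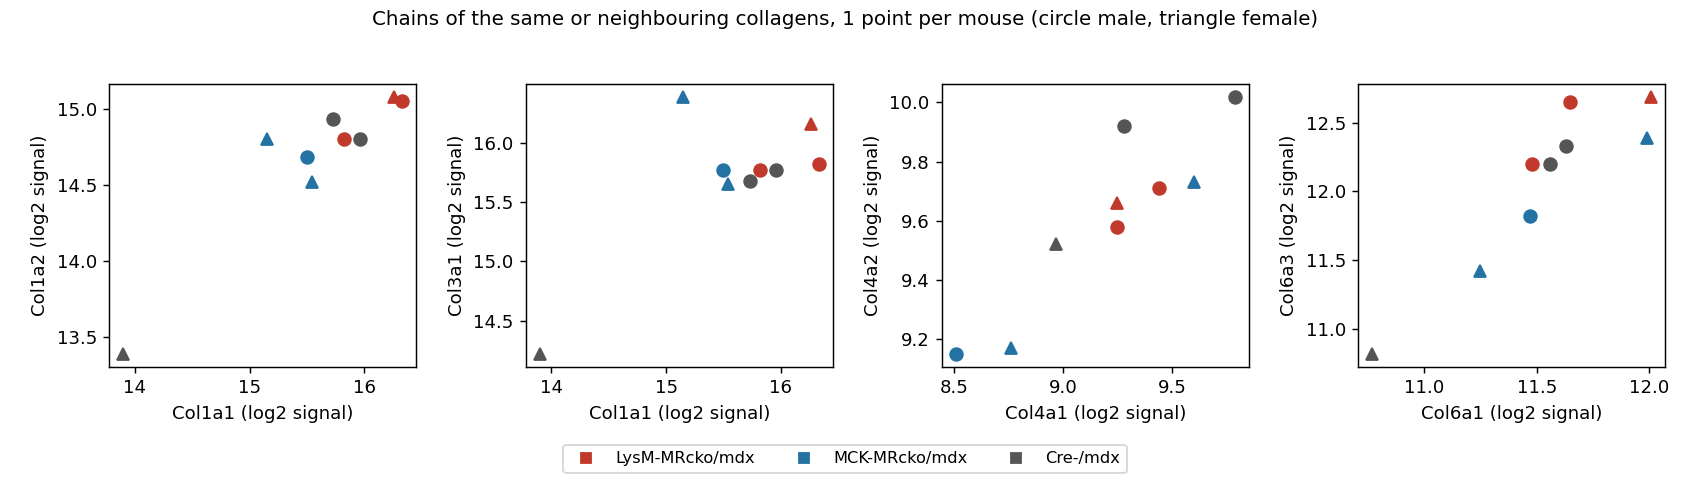
Log2 signal of 2 chains against each other in each of the 9 mice (colour by genotype, circle male, triangle female) for 4 pairs. The grey triangle at the lower left is Cre-/mdx replicate 2 in the type I, III and VI panels, and MCK-MRcko/mdx replicate 3 stands at the top of the Col3a1 panel with a low Col1a1.

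Chains were also set against each other within a mouse. With the Cre-/mdx mean set to 0, Col1a1 minus Col3a1 was 0.54, 0.08 and 0.13 in LysM-MRcko/mdx, -0.08, -0.24 and -1.21 in MCK-MRcko/mdx and 0.08, -0.29 and 0.22 in Cre-/mdx. The knockouts did not overlap (0.76, exact permutation p = 0.10), and MCK-MRcko/mdx replicate 3 lay farthest from the other mice. Col6a2 minus Col6a1 was 0.24, 0.17 and 0.38 in LysM-MRcko/mdx, -0.52, -0.18 and -0.47 in MCK-MRcko/mdx and -0.04, -0.36 and 0.40 in Cre-/mdx, again without overlap of the knockouts (0.65, exact permutation p = 0.10) and with controls across both. These differences of pairs were picked after their values were seen.

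Procollagen needs hydroxylation, chaperoning, cleavage and cross-linking before it forms fibers. Of 29 genes listed for these steps 26 had a single-symbol cluster, and 1 was called in LysM-MRcko/mdx against Cre-/mdx, 0 in MCK-MRcko/mdx against Cre-/mdx and 1 in LysM-MRcko/mdx against MCK-MRcko/mdx. Both calls were Loxl1, an oxidase of elastin and collagen lysines, which had 11.30, 10.91 and 11.29 in LysM-MRcko/mdx, 9.59, 10.27 and 10.16 in MCK-MRcko/mdx and 9.67, 9.34 and 10.30 in Cre-/mdx. It rose by 1.40 from Cre-/mdx (SE 0.28, adjusted p = 0.778 in limma) and was 1.16 above MCK-MRcko/mdx (SE 0.28, adjusted p = 0.558), or 0.95 without MCK-MRcko/mdx replicate 1. Lox, the main collagen cross-linker, had 12.24, 12.08 and 11.83 in LysM-MRcko/mdx, 12.23, 11.83 and 12.23 in MCK-MRcko/mdx and 11.67, 10.85 and 11 in Cre-/mdx. It differed from Cre-/mdx by 0.88 in LysM-MRcko/mdx and 0.92 in MCK-MRcko/mdx (SE 0.23 each), above all controls but under 2-fold. Serpinh1, the collagen chaperone Hsp47, had 8.96, 8.20 and 8.98 in LysM-MRcko/mdx, 7.78, 8.18 and 8.50 in MCK-MRcko/mdx and 8.10, 7.25 and 8.74 in Cre-/mdx, with overlap throughout. The list median was 0.21, 0.02 and 0.07 in the 3 comparisons, in that order. The rule called 0.376%, 0.321% and 0.429% of all clusters in the same comparisons.

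Fibroblast markers were read beside the collagen genes. The 10 measured markers of resting fibroblasts had 0 calls, with medians of 0.06 in LysM-MRcko/mdx and 0.02 in MCK-MRcko/mdx. Of 11 measured activated fibroblast markers, 6 were called higher in LysM-MRcko/mdx against Cre-/mdx (Postn, Acta2, Fn1, Tnc, Lrrc15 and Tgfbi). In MCK-MRcko/mdx 1 was (Tgfbi), and 4 were in LysM-MRcko/mdx against MCK-MRcko/mdx. In these comparisons 1, 2 and 1 of the 11 markers were below 0, and the same rule called 0.376%, 0.321% and 0.429% of all clusters. With each marker set to its own Cre-/mdx mean, the median of the 11 was 1.35, 0.85 and 0.89 in LysM-MRcko/mdx, 0.23, 0.36 and 0.30 in MCK-MRcko/mdx and 0.02, -0.13 and 0.23 in Cre-/mdx. Fn1 (0.997 in place of 1.60) and Acta2 (0.90 in place of 1.22) were under 2-fold in LysM-MRcko/mdx when Cre-/mdx replicate 2 was left out, and the other 4 were not. Acta2 was also under 2-fold without LysM-MRcko/mdx replicate 1 (0.97), and Tgfbi in MCK-MRcko/mdx without MCK-MRcko/mdx replicate 1 (0.86). Tnc, a matricellular protein of scar, was 3.15 above Cre-/mdx in LysM-MRcko/mdx, and Postn, a matricellular protein that binds collagen I, was 1.89 above. None of these calls had an adjusted p under 0.05 in limma.

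Markers of other cell types were called too. Of 12 macrophage markers, 8 were called higher in LysM-MRcko/mdx (median 1.22, 1 below 0) and 5 in MCK-MRcko/mdx (median 0.74, 0 below 0). The same rule called 0.376% and 0.321% of all clusters in LysM-MRcko/mdx and MCK-MRcko/mdx against Cre-/mdx. Leaving out 1 array left 6 to 8 of the 8 and 3 to 5 of the 5 at 2-fold or more. Of 10 markers of regenerating fibers, 3 were called higher in LysM-MRcko/mdx (Myh3, Mymk and Tnnt2, list median 0.86, 0 below 0). In MCK-MRcko/mdx 0 were called (median -0.06, 7 below 0). Abcc9 was the 1 mural cell marker called in LysM-MRcko/mdx, where it fell, and it was under 2-fold without LysM-MRcko/mdx replicate 1 (-0.92) or Cre-/mdx replicate 1 (-0.69). Tendon, cartilage, adipocyte and glial lists had 0 calls in every comparison. The adipocyte median was 0.70 in LysM-MRcko/mdx (4 of 7 markers above 0) and -0.49 in MCK-MRcko/mdx (1 of 7 above 0). Between the knockouts it was 1.21 (6 of 7 above 0). Tendon, cartilage and glial medians were between -0.16 and 0.04. The part of these cell types in the collagen values was not tested.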

How the data were processed

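RNA from quadriceps of 9 mice was hybridised by the authors to Affymetrix mouse Clariom D arrays. The deposited values are log2 signals per transcript cluster, which the authors normalised at gene level with SST-RMA in Expression Console and compared in Transcriptome Analysis Console; versions and genome build are not given in the sources used here. Deposited values have 2 decimals and no detection calls, so which clusters are above background is unknown, and the number of arrays limits precision. Clusters were named from the platform annotation: 30450 had 1 symbol, 2151 several and 33071 none, and no symbol needed updating.

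Each cluster was fitted with limma 3.58.1 (R 4.3.3), with 1 mean per genotype over all 9 arrays, and Benjamini-Hochberg adjustment over 65672 clusters. The code was tested on simulated data. Exact permutation tests of single genes and of chain differences were run in R. Correlations and their permutation tests used Python 3.11.15 and scipy 1.17.1, and figures matplotlib 3.10.9. Mice were labelled biological replicates. Same-numbered mice of different genotypes were not paired in the labels.

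The members and gene lists were chosen with earlier results of these data known. Values per mouse are given for most main chains of each class and the 3 highest and 3 lowest collagen genes without overlap per comparison. Col5a3, Col19a1, Col22a1 and Col28a1 are given by range or difference. From outside the collagen genes, values per mouse are given for Nr3c2, Lox, Loxl1, Serpinh1 and Pdgfrb, and other called genes are named without them. Alternatives were a fit on 6 arrays, a plain equal-variance test, the replicate block, sex, array weights, trend with robust moderation, quantile normalisation, median centring, a filter on low clusters, the mean of a gene's clusters and leaving out each array. Leaving out flat clusters, comparing within each sex, leaving out arrays for called genes of the other lists and setting markers to their Cre-/mdx mean were chosen after seeing the data.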

Additional observations from a re-analysis of the deposited data

Results flagged for a closer look

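No collagen gene differed between the 2 knockouts by the rule of 2-fold and an unadjusted p under 0.05 in limma. Genes of the other lists that did, as log2 LysM-MRcko/mdx minus MCK-MRcko/mdx, were Loxl1 (1.16), Postn (1.29), Acta2 (1.74), Fn1 (1.48), Tnc (2.84), Pdgfrb (1.07), Myh3 (1.95), Mymk (2.42), Tnnt2 (1.82) and Ncam1 (1.38), none with an adjusted p under 0.05. Loxl1 (0.95) and Pdgfrb (0.91) were under 2-fold without MCK-MRcko/mdx replicate 1, Pdgfrb (0.94) also without LysM-MRcko/mdx replicate 1, and Ncam1 (0.98) without MCK-MRcko/mdx replicate 3. Pdgfrb, the receptor of pericytes and fibroblasts, had 11.46, 10.85 and 11.30 in LysM-MRcko/mdx, 9.82, 10.33 and 10.25 in MCK-MRcko/mdx and 10.73, 10.73 and 10.84 in Cre-/mdx, so every LysM-MRcko/mdx mouse was above and every MCK-MRcko/mdx mouse below the controls. That the 2 knockouts lay on opposite sides of Cre-/mdx was not tested beyond the difference of 1.07 between them. Groups of 3 are too small for a test of outlying mice.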

How the results depend on the processing

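No collagen gene was called under any alternative other than leaving out an array. Leaving out 1 array gave 0 to 1 calls in LysM-MRcko/mdx against Cre-/mdx: Col8a1, Col6a6 and Col1a1 were each called once, without LysM-MRcko/mdx replicate 3, Cre-/mdx replicate 2 and Cre-/mdx replicate 3, in that order of genes. Deviations of same-numbered mice from their genotype means correlated between -0.23 and 0.16. Differently numbered mice were not compared and each mean held 3 mice, so these values cannot decide whether the numbers paired mice. With the replicate block 0 collagen genes were called. In the 3 comparisons as ordered in the report, 5, 2 and 3 collagen genes had an unadjusted p under 0.05 with the block (5, 1 and 2 without), and 229, 164 and 265 of all clusters were called (247, 211 and 282 without). The fit on 6 arrays called 211, 146 and 283 clusters and the plain equal-variance test 143, 114 and 223.

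Median differences moved with the set of genes. Without the flat clusters, LysM-MRcko/mdx against Cre-/mdx had medians of 0.26 for all collagen genes, 0.63 for fibrillar, 0.15 for FACIT, -0.10 for basement membrane and 0.25 for other chains. MCK-MRcko/mdx against Cre-/mdx had 0.06 for all, 0.20 for fibrillar, 0.06 for FACIT, -0.43 for basement membrane and 0.06 for other chains. Between the knockouts they were 0.21 for all, 0.29 for fibrillar, 0.10 for FACIT, 0.33 for basement membrane and 0.22 for other chains. For the settings that follow in this paragraph, only medians that moved by more than the within-genotype SD of the set median over mice are listed. Without clusters below the median signal the medians were 0.12 for FACIT and 0.0167 for other chains in LysM-MRcko/mdx against Cre-/mdx. Between the knockouts they were 0.0733 for all, 0.0867 for FACIT and 0.0433 for other chains. Quantile normalisation gave 0.0204 for other chains in LysM-MRcko/mdx and 0.00444 in MCK-MRcko/mdx against Cre-/mdx, and 0.0518 for all, 0.0445 for basement membrane and 0.0393 for other chains between the knockouts. Median centring gave 0.01 for other chains in each knockout against Cre-/mdx, and 0.0233 for all and 0.0167 for other chains between the knockouts. Sex as a covariate gave 0.0194 for all, 0.0147 for basement membrane and 0.0139 for other chains between the knockouts, and array weights 0.0298 for other chains.

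Leaving out 1 array, the median in LysM-MRcko/mdx against Cre-/mdx ranged from 0.00167 to 0.0475 for all collagen genes, 0.06 to 0.295 for fibrillar, -0.0325 to 0.015 for basement membrane, 0.118 to 0.548 for beaded filament and 0 to 0.0167 for other chains, and was 0 throughout for FACIT chains. In MCK-MRcko/mdx against Cre-/mdx it ranged from -0.0242 to 0.0125 for all, -0.0233 to 0.18 for fibrillar, -0.0183 to 0 for FACIT, -0.0475 to 0 for basement membrane, -0.388 to 0.215 for beaded filament and -0.00833 to 0 for other chains. All lowest values but those of FACIT and other chains in LysM-MRcko/mdx came without Cre-/mdx replicate 2. Between the knockouts the range was 0.0233 to 0.0450 for all collagen genes, 0 to 0.207 for fibrillar, 0 to 0.0150 for FACIT, 0 to 0.045 for basement membrane, -0.0167 to 0.353 for beaded filament and 0.0167 to 0.0350 for other chains.

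Without the 2 mice farthest from the median, r was 0.61 for Col1a1 with Col1a2, -0.19 for Col1a1 with Col3a1, 0.79 for Col5a1 with Col5a2, 0.79 for Col4a1 with Col4a2, 0.56 for Col6a1 with Col6a2, 0.75 for Col6a1 with Col6a3 and -0.13 for Col8a1 with Col8a2, and with genotype means removed it was -0.17 for Col8a1 with Col8a2. The causes of these shifts were not tested. With 3 mice a genotype and intervals often more than 1 unit wide, differences under 2-fold could mostly not be told from 0.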
